A study of Mus musculus with 6 samples.

Results

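Translation initiation factors (eIFs) were examined in mouse multiple myeloma cells, malignant antibody-secreting plasma cells of bone marrow, cultured with or without insulin-like growth factor 1 (IGF-1). The members were the genes whose symbol in the array's probe annotation begins with Eif1 to Eif6, without the eIF2α kinases (Eif2ak), and each gene was read from its brightest probe set over all arrays. This gave 38 genes of 12393 on the array, measured by 94 of 22690 probe sets. The design held 3 arrays of cells given 100 ng/ml IGF-1 and 3 arrays of control cells without it, and both groups were kept in serum-free medium for 12 h. The labels name no cell line, strain, age or sex, and do not say whether replicates were separate cultures, so a p-value here sets a difference against the spread of these arrays alone, and that spread may be technical. Eif2s1, Eif2b3, Eif2a, Eif3g, Eif4g1, Eif4ebp3, Eif1, Eif1ad and Eif5a2 were not analysed here, and Eif3j1, Eif3j2 and Eif4a3 had no probe set of their own.

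Initiation brings the ribosome to the start codon of an mRNA. The trimeric factor eIF2, reloaded with GTP by eIF2B, carries the initiator tRNA to the small ribosomal subunit, where eIF1, eIF1A, eIF3 and eIF5 assemble with it. The cap-binding complex eIF4F (eIF4E, eIF4G and the helicase eIF4A) recruits the mRNA. The 4E-BP proteins block eIF4E until the kinase complex mTORC1, which acts downstream of IGF-1 and insulin receptors, phosphorylates them. Plasma cells depend on high rates of translation for antibody secretion. Much of this regulation acts on the proteins themselves, and the arrays measured transcripts only.

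Values are MAS5 signals, a linear intensity per probe set, which the authors had scaled to the same trimmed mean (150.1) in each array, and differences are IGF-1 minus control on a log2(signal + 15.57) scale with standard errors. Genes entered the limma test when their mean signal exceeded 53.61. This left 36 of the 38 factors among 6895 genes. The adjusted p is Benjamini-Hochberg over all probe sets tested, with a threshold of 0.05. Levels were not compared between genes, since each probe set has its own brightness. Plasma cell markers were present, with Xbp1 and Sdc1 at mean signals of 4635 and 894.8. The summed signal of 7 plasma cell markers was 10440 to 10880 in IGF-1 arrays and 11290 to 12220 in control arrays. Xbp1 and Jchain, at mean signals of 4635 and 4377, made up most of it, and the sums below also follow their brightest markers. Slamf7 and Tnfrsf17 fell, the other 5 did not pass, and Sdc1 alone had a positive difference (0.14). Neutrophil markers also gave signal (9 of 9 above the filter, summed 23300 to 25930 in IGF-1 arrays and 25110 to 29990 in control arrays, 1 fell). Macrophage markers summed to 4797 to 6562 in IGF-1 arrays and 5572 to 7347 in control arrays (7 of 8 above the filter, 3 fell, 1 rose). Of 6 T cell markers, 0 passed the filter, and their summed signal was 130.3 to 149.9 in IGF-1 arrays and 132.4 to 168.8 in control arrays. The 4 erythroid markers summed to 230.7 to 341.3 in IGF-1 arrays and 227.8 to 368.8 in control arrays. The part of other cells in the results below was not tested, and fewer cells of a type cannot be told apart from less RNA per cell.

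With the arrays scaled as deposited, the initiation factors tested here differed little between IGF-1 and control cells at the transcript level. Of the 36 factors tested, 2 rose (Eif3b and Eif1ax), 0 fell and 34 did not pass, a share of 5.56% called. Among all genes tested 15.1% were called, 7.05% higher and 8.05% lower with IGF-1. At an unadjusted p under 0.05, limma gave 5 factors higher and 2 lower, while 30.5% of all genes were past it. That background, 993 genes higher and 1108 lower of 6895, applies to every unadjusted count below. The median difference of the factors was 0.03 and that of all genes -0.01. Differences of the factors ran between -0.36 (Eif4h) and 0.55 (Eif3b), with an SD over genes of 0.191, against 0.319 over all genes. For 33 of 36 factors the 95% interval of the difference lay inside a 1.5-fold change in either direction. The exceptions were Eif3b, Eif1ax and Eif4h. These values hold for the deposited scaling. With scaling to spiked hybridization controls, described below, 7 of 36 factors rose, as did 18.2% of all genes. The probe sets read for the factors were bright, with a median mean signal of 879.7, against 190.5 for all genes tested. Brightness differs between probe sets, so this does not compare amounts of transcript. Nor were the SDs above compared at matched brightness.

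**Figure D1:**
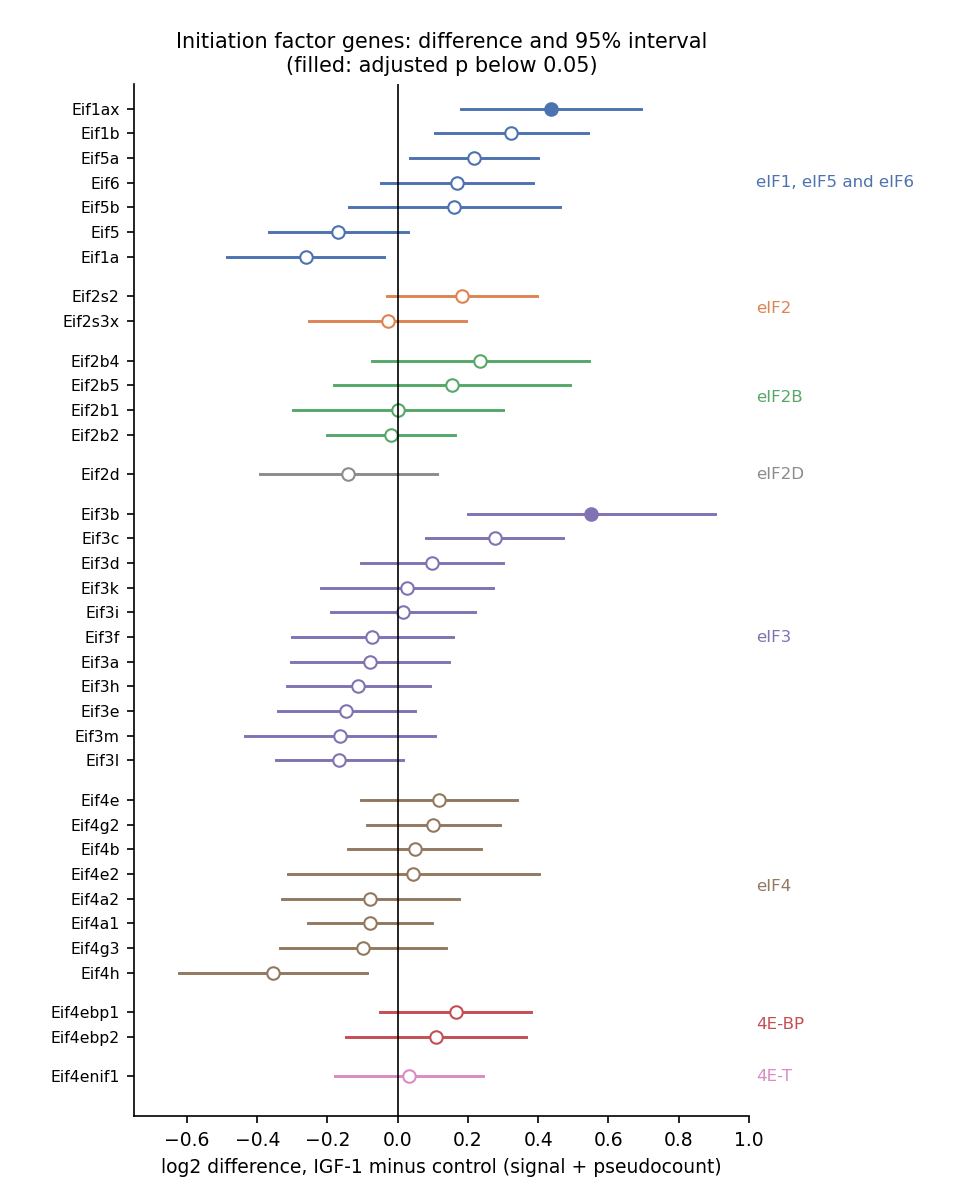
Log2 difference, IGF-1 minus control, of the 36 tested initiation factor genes, grouped by role, with 95% intervals from the fit over all probe sets (3 arrays a group). Filled points passed the adjusted p threshold. Only Eif1ax (0.44) and Eif3b (0.55) are filled, and 29 of the other 34 intervals span 0.

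Arrays of both groups were compared for overlap as well. In 5 of 36 factors (Eif3b, Eif1ax, Eif1b, Eif3c and Eif5a; 13.9%) every IGF-1 array was above every control array, and 17.1% of all genes did so. In 4 factors (Eif4h, Eif1a, Eif5 and Eif3l; 11.1%) every IGF-1 array was below every control array, against 18.2% of all genes. Both shares of factors lay near or under those of all genes. The role groups had medians of 0.08 for eIF2 (2 genes tested), 0.08 for eIF2B (4), -0.07 for eIF3 (11), -0.02 for eIF4 (8), 0.14 for the 4E-BPs (2) and 0.17 for eIF1, eIF5 and eIF6 relatives (7).

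Factors that scan for and check the start codon held 1 of the 2 rises. Eif1ax encodes eIF1A, which keeps the scanning ribosome open. It gave signals of 540, 626 and 574 in IGF-1 arrays, against 495, 408 and 377 in control arrays. The groups did not overlap, and Eif1ax rose 1.35-fold (log2 difference 0.44 ± 0.12, adjusted p = 0.031, limma). The call did not survive the removal of some single arrays. The adjusted p became 0.114 with IGF-1 2 left out, 0.0769 with IGF-1 3 left out, 0.0974 with control 2 left out and 0.0914 with control 3 left out. Its second probe set lay at a mean signal of 4.3, under the filter.

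Eif1a, a close copy of the same gene, ran the other way. It had 198, 184 and 203 in IGF-1 arrays and 242, 222 and 248 in control arrays (-0.26 ± 0.10, adjusted p = 0.11). Its dimmer probe set fell, with 132, 90.2 and 129 in IGF-1 arrays against 170, 165 and 164 in control arrays (-0.47 ± 0.14, adjusted p = 0.048), a call kept only without IGF-1 1 and lost without each of the other 5 arrays (highest adjusted p 0.14). It was also lost with quantile (adjusted p 0.067), median (0.0959) and hybridization control scaling, where the difference was -0.25 (0.319). RNA of such close copies can bind the same probe sets. The ratio of Eif1ax to Eif1a within an array, a difference of their log2(signal + 15.57) values, was 1.38, 1.68 and 1.44 in IGF-1 arrays and 0.99, 0.84 and 0.57 in control arrays. It was higher in every IGF-1 array than in every control array (exact two-sided permutation p = 0.1, the smallest that 3 against 3 arrays allow, and 0.16 adjusted over 8 ratios). This outcome was fixed by the signals above, where Eif1ax was higher and Eif1a lower in every IGF-1 array. The ratio is therefore no separate support.

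Eif1b, a relative of eIF1 that guards start codon choice, lay just outside the threshold. Its signals were 321, 296 and 320 in IGF-1 arrays and 258, 229 and 254 in control arrays (0.32 ± 0.10, adjusted p = 0.051). Eif5 encodes the factor that triggers GTP hydrolysis on eIF2, and had 2150, 2185 and 2299 in IGF-1 arrays against 2732, 2334 and 2412 in control arrays (-0.17 ± 0.09, adjusted p = 0.23). All 4 probe sets of Eif5 were negative as deposited, and the brightest turned to 0.07 with scaling to hybridization controls. The dimmest of them fell (1255, 1198 and 1105 in IGF-1 arrays, against 1609, 1524 and 1398 in control arrays; -0.34 ± 0.09, adjusted p = 0.032). That call was lost without IGF-1 2, IGF-1 3, control 1 or control 2 (highest adjusted p 0.122), with median scaling (0.109), and with hybridization controls, where the difference was -0.11 (0.594). Eif5b, the GTPase that joins the ribosomal subunits, differed by 0.16 ± 0.14 (adjusted p = 0.47).

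**Figure D2:**
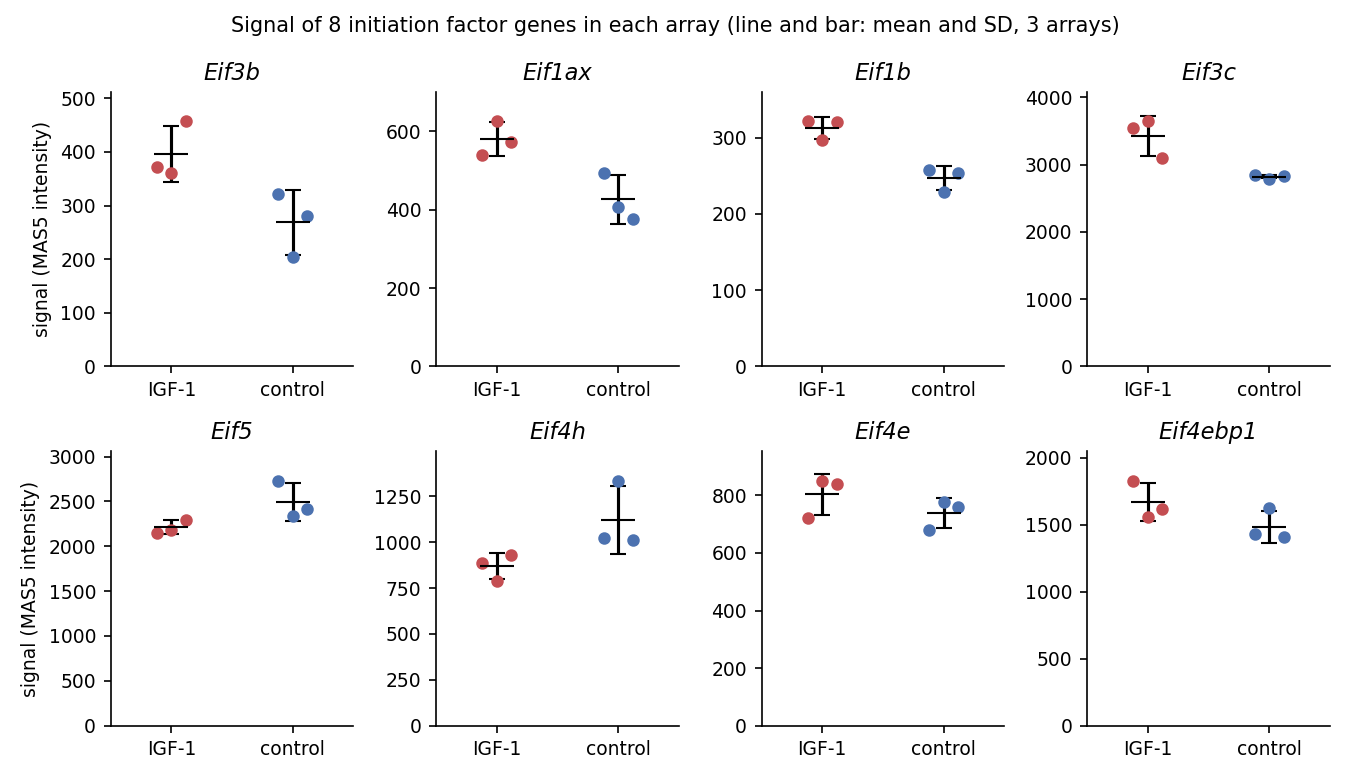
MAS5 signal of 8 initiation factor genes in each array, with IGF-1 arrays left of control arrays, each point 1 array and the line and bar the mean and SD of 3. Points of the groups are apart for Eif3b, Eif1ax, Eif1b, Eif3c, Eif5 and Eif4h, and mix for Eif4e and Eif4ebp1.

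Subunits of eIF2 and of its exchange factor eIF2B did not pass the test in either direction (0 of 6, and 0 at an unadjusted p under 0.05, limma). Of all genes, 15.1% passed at the adjusted threshold. Eif2s2, the beta subunit, had 3693, 3558 and 3745 in IGF-1 arrays and 3081, 3675 and 2971 in control arrays (0.18 ± 0.10, adjusted p = 0.23). Control 2 lay among the IGF-1 arrays, and 6 tested probe sets of the gene ran between -0.33 and 0.18. Eif2s3x, the gamma subunit that binds the initiator tRNA, had 759, 603 and 664 in IGF-1 arrays and 674, 701 and 684 in control arrays (-0.03 ± 0.10, adjusted p = 0.88). Its Y-linked copy Eif2s3y lay under the filter, with 9.95, 19.3 and 13.9 in IGF-1 arrays and 22.8, 38.9 and 22.8 in control arrays (adjusted p = 0.197 in a fit with no filter).

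In eIF2B the catalytic subunit Eif2b5 had 247, 170 and 204 in IGF-1 arrays and 192, 206 and 152 in control arrays (0.16 ± 0.15, adjusted p = 0.54). Eif2b4, a regulatory subunit, had the highest difference of the complex, with 178, 205 and 187 in IGF-1 arrays and 184, 126 and 172 in control arrays (0.24 ± 0.14, adjusted p = 0.29). Eif2b2, another regulatory subunit, had nearly the same signal in all 6 arrays, with 751, 766 and 750 in IGF-1 arrays and 757, 782 and 760 in control arrays (-0.02 ± 0.08, adjusted p = 0.9). The interval of its difference, -0.20 to 0.16 on the log2 scale, lay inside a 1.5-fold change. Eif2b1 differed by 0.00 ± 0.13. Eif2d, which can deliver initiator tRNA without eIF2, had 226, 225 and 229 in IGF-1 arrays and 285, 256 and 218 in control arrays (-0.14 ± 0.11, adjusted p = 0.45). A second, nearly as bright probe set of Eif2d rose (0.52 ± 0.16, adjusted p = 0.047) and the remaining one differed by -0.34 ± 0.31, so its probe sets gave no common direction. That rise was lost without any 1 array but control 1 (highest adjusted p 0.15).

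In the scaffold complex eIF3, 1 of 11 tested subunits rose, 0 fell and 10 did not pass, while 15.1% of all genes passed. At an unadjusted p under 0.05, limma gave 2 subunits higher and 0 lower, while 30.5% of all genes were past it. Eif3b, a core subunit that holds the complex together, gave 372, 361 and 457 in IGF-1 arrays, against 322, 203 and 280 in control arrays. It rose 1.47-fold (0.55 ± 0.16, adjusted p = 0.042), measured by 1 probe set, with a 95% interval of 0.20 to 0.90. Control 2 was the lowest of the 6 arrays, and without it the difference was 0.38 (adjusted p = 0.12). The call was also lost without control 3 (0.0682), IGF-1 1 (0.0722), IGF-1 2 (0.0726) or IGF-1 3 (0.136), each an adjusted p. Eif3c, another core subunit, had 3549, 3644 and 3093 in IGF-1 arrays and 2844, 2793 and 2826 in control arrays (0.28 ± 0.09, adjusted p = 0.06). The control arrays lay within a narrow band under all IGF-1 arrays. Both middle probe sets of Eif3c by signal rose (0.32 ± 0.08 and 0.39 ± 0.09, adjusted p = 0.025 and 0.016).

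The remaining eIF3 subunits lay between -0.17 and 0.10. Eif3a, the largest scaffold subunit, had 2249, 1940 and 1796 in IGF-1 arrays and 2137, 2204 and 1960 in control arrays (-0.08 ± 0.10, adjusted p = 0.65). Eif3l had the lowest difference, with 1175, 1108 and 1100 in IGF-1 arrays and 1238, 1265 and 1298 in control arrays (-0.17 ± 0.08, adjusted p = 0.2). Its groups did not overlap, but the difference was 0.07 with scaling to hybridization controls. Eif3e, Eif3f, Eif3h and Eif3m were also negative (-0.15, -0.07, -0.11 and -0.16) and Eif3d, Eif3i and Eif3k positive (0.10, 0.01 and 0.03), and none of the 7 passed. Those 4 negative values turned positive (0.07 to 0.17) under that scaling. Within arrays, the log2 ratio of Eif3b to the median of the other eIF3 subunits averaged -2.01 ± 0.18 with IGF-1 and -2.62 ± 0.39 in controls (SD, n = 3; exact permutation p = 0.1, 0.16 adjusted over 8 ratios). Eif3b was thus higher relative to its partners in every IGF-1 array than in every control array. This ratio uses the same arrays as the call of Eif3b. With 3 against 3 arrays its permutation p could not go under 0.1. Another 3 probe sets matched both copies of the eIF3j gene and were assigned to neither (-0.33 to -0.20, 0 past the threshold and 1 at an unadjusted p under 0.05, limma).

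Of 8 tested genes of the cap-binding and unwinding factors eIF4, 0 rose and 0 fell, while 15.1% of all genes passed. At an unadjusted p under 0.05, limma gave 0 higher and 1 lower, Eif4h, a cofactor of the helicase eIF4A. It had 889, 790 and 928 in IGF-1 arrays and 1023, 1336 and 1010 in control arrays (-0.36 ± 0.12, adjusted p = 0.075). The groups did not overlap, but the other 2 probe sets of Eif4h differed by 0.02 and 0.01. Eif4e, the cap-binding protein, had 722, 851 and 838 in IGF-1 arrays and 679, 776 and 761 in control arrays (0.12 ± 0.10, adjusted p = 0.47). Its groups overlapped, and its 95% interval was -0.10 to 0.34. The helicase gene Eif4a1 had 3434, 3158 and 3175 in IGF-1 arrays and 3351, 3483 and 3475 in control arrays (-0.08 ± 0.08, adjusted p = 0.56).

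Eif4b, a further helicase cofactor and a substrate of S6 kinase, had 1141, 1223 and 1102 in IGF-1 arrays and 1118, 1151 and 1079 in control arrays (0.05 ± 0.09, adjusted p = 0.75). The 3 Eif4b probe sets spread between -0.17 and 0.27, and none passed. Eif4a2, the second helicase gene, Eif4e2, a cap-binding relative of eIF4E, and the eIF4G relatives Eif4g2 and Eif4g3 differed by -0.08, 0.04, 0.10 and -0.10. Eif4e3, another cap-binding relative, was too dim for the filter. It had 33.0, 21.1 and 45.3 in IGF-1 arrays and 69.0, 55.2 and 70.4 in control arrays, and every IGF-1 array was below every control array in both of its probe sets. In a fit with no filter the differences were -0.75 and -0.73 (adjusted p = 0.103 and 0.081, limma).

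The 4E-BPs, which sequester eIF4E, did not pass either. Eif4ebp1 had 1828, 1554 and 1619 in IGF-1 arrays and 1427, 1621 and 1406 in control arrays (0.17 ± 0.10, adjusted p = 0.29). Control 2 reached the level of IGF-1 3. Its second tested probe set gave 0.12 ± 0.10. Eif4ebp2 had 333, 299 and 311 in IGF-1 arrays and 336, 254 and 285 in control arrays (0.11 ± 0.12, adjusted p = 0.57), and its 4 tested probe sets ran between -0.16 and 0.37. The 95% intervals of Eif4ebp1 and Eif4ebp2 reached 0.38 and 0.37 on the log2 scale, so rises of that size cannot be told from none. The within-array log2 ratio of Eif4ebp1 to Eif4e, the inhibitor over its target, averaged 1.04 ± 0.25 with IGF-1 and 0.99 ± 0.10 in controls (SD, n = 3; exact permutation p = 0.9). Eif4enif1 encodes 4E-T, which moves eIF4E into the nucleus, and had 331, 330 and 350 in IGF-1 arrays and 350, 329 and 310 in control arrays (0.03 ± 0.10, adjusted p = 0.86).

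Of the late-acting factors, Eif5a, which helps ribosomes over stalling sequences and carries the amino acid hypusine, had 3795, 3848 and 3650 in IGF-1 arrays and 3377, 3022 and 3321 in control arrays (0.22 ± 0.08, adjusted p = 0.1). Its dimmer probe set rose (0.33 ± 0.09, adjusted p = 0.031), a call kept only without IGF-1 1 among the 6 arrays left out in turn (highest adjusted p 0.126), and lost with quantile normalization (0.0665). Eif6, which keeps the large subunit from joining too early, had 656, 590 and 640 in IGF-1 arrays and 548, 516 and 610 in control arrays (0.17 ± 0.10, adjusted p = 0.28). Its groups overlapped through control 3.

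Probe sets of the same gene gave a second look at these differences, though they share the same RNA samples. Of 78 tested probe sets of the factors, 6 rose and 2 fell (10.3% past the threshold), while over all probe sets 15.1% passed, 6.82% higher and 8.28% lower. Among 20 genes with more than 1 tested probe set, 8 had all of them on the same side of 0 and 12 were mixed. Of those 8, Eif3c and Eif5 had the most tested probe sets. In Eif3c 4 of 4 were positive and 2 rose, and in Eif5 4 of 4 were negative and 1 fell. The fall in Eif5 was lost without some single arrays and under some scalings, as given above. One rise of Eif3c ended when IGF-1 1, IGF-1 3 or control 3 was left out (highest adjusted p 0.0539) and the other when any array but control 2 was removed (highest adjusted p 0.0869).

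**Figure D3:**
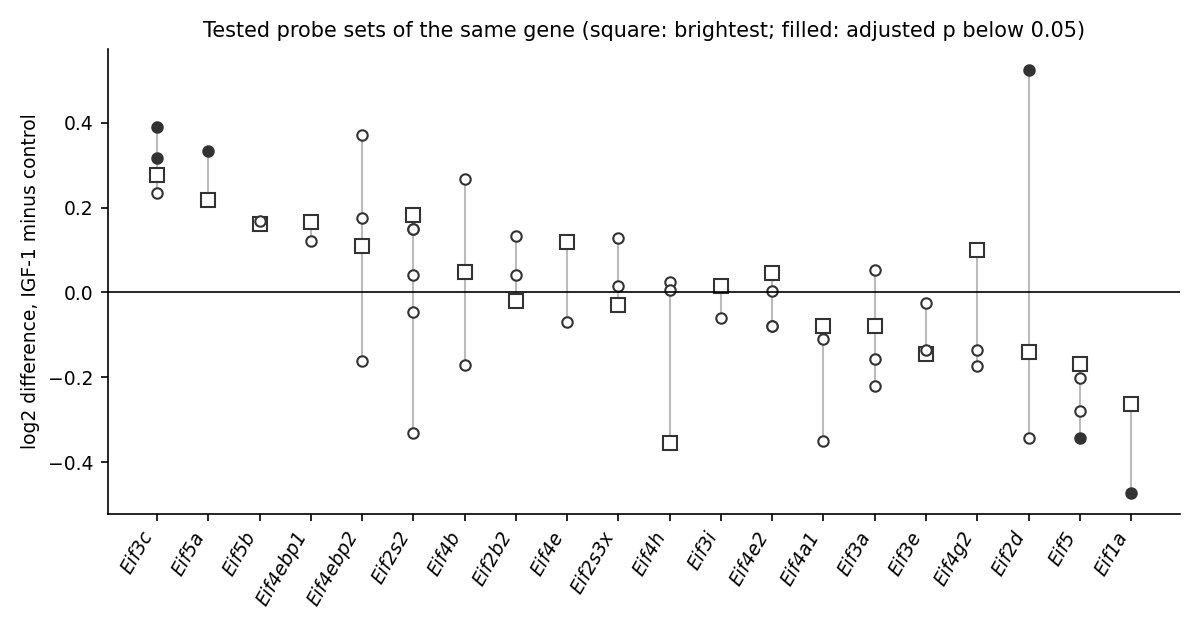
Log2 difference, IGF-1 minus control, of each tested probe set for the 20 factors with more than 1, ordered by the gene's median. Squares are the brightest probe set and filled symbols passed the threshold. All probe sets of Eif3c and Eif5a lie above 0 and all of Eif5 and Eif1a below, while those of Eif2d run between -0.34 and 0.52.

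How the arrays are set to a common scale decided how many factors passed. Scaling to the spiked hybridization controls, in place of the trimmed mean of all signals, moved the median of all probe sets to 0.21. Under it 7 of 36 factors rose (19.4%) and 0 fell, while 18.2% of all genes rose and 2.44% fell. The 7 were Eif1ax, Eif1b, Eif2s2, Eif3b, Eif3c, Eif4ebp1 and Eif5a, and 34 of 36 factors were positive, against 21 as deposited. Relative to the shift, Eif3b differed by 0.57, Eif1ax by 0.46, Eif4ebp1 by 0.20, Eif4e by 0.15 and Eif4h by -0.33. The zero point moved for all factors together, and Eif1a and Eif4h were the 2 that remained negative. Array factors to the hybridization controls ran between 0.83 and 1.145. Which scaling lies closer to the amount of RNA per cell was not tested.

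**Figure D4:**
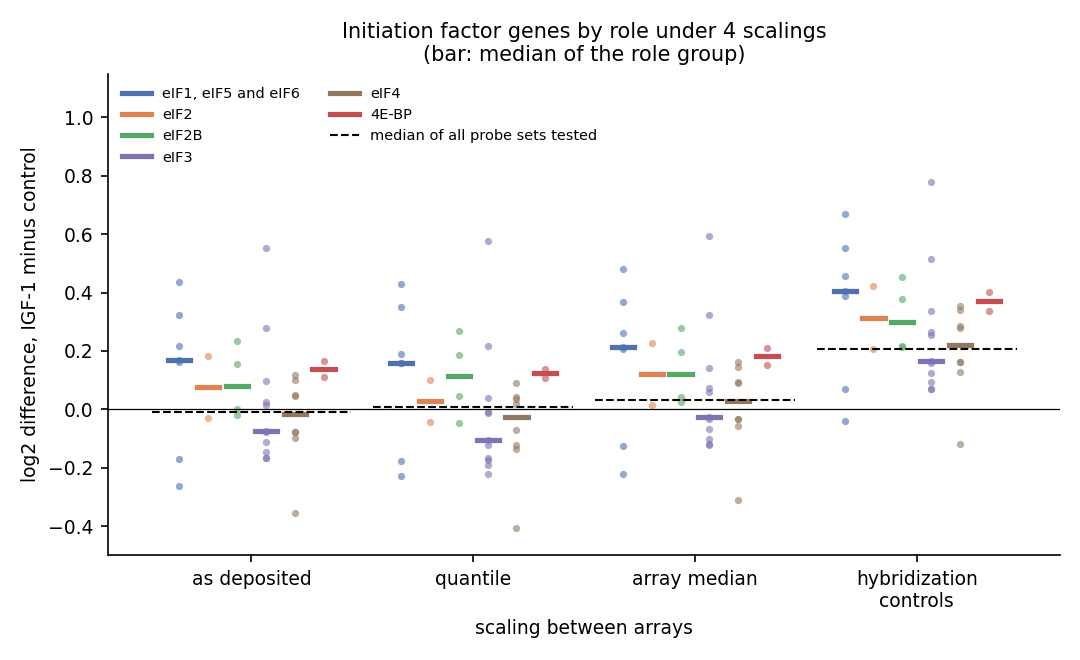
Log2 difference, IGF-1 minus control, of factors in 6 role groups (points; bars are group medians) under the deposited scaling and 3 other scalings between arrays, with the median of all probe sets tested as a dashed line. The dashed line lies at -0.01 as deposited and at 0.21 with hybridization controls, and each role group moves up with it.

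Counts also changed with the filter and with the way probe sets were combined. With a filter at the 70th percentile of signal (mean above 136.9), 4 of 35 factors rose and 0 fell, against 10.4% and 10.3% of all genes. Eif1b and Eif3c joined Eif1ax and Eif3b. With the mean of all probe sets of a gene, 5 rose (Eif1ax, Eif1b, Eif3b, Eif3c and Eif5a) and 1 fell (Eif1a), against 8.05% and 8.5% of all genes. Without a filter 0 of 38 factors passed (4.62% of all genes), and without the intensity trend in the spread 0 of 36 (12.8%).

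Genes of initiation factors such as Eif4e are known targets of the transcription factor MYC, which binds the E-box CACGTG. Myc, added here after its values were seen, fell to 330, 311 and 284 in IGF-1 arrays, against 858, 684 and 716 in control arrays (-1.24 ± 0.11, adjusted p = 0.00014). The 250 bases before each RefSeq start site were searched for CACGTG, which reads the same on both strands. RefSeq promoters (GRCm38.p6) were matched for 29 of the 36 tested factors, and 7 of them (24.1%) held an E-box in at least 1 promoter. Of 5676 genes tested on the arrays with a promoter, 10.5% did so, as did 6.86% of all 27025 genes. Genes with several listed start sites have more chances of a match. The sites are shown because they hold the letters that MYC is known to bind, with the E-box in capitals and 10 bases on each side:
Eif1b (chr9:120492572-120492597, + strand): tgcggacggtCACGTGgcggcggcgc
Eif3f (chr7:108934337-108934362, + strand): agatatgattCACGTGgtataaattt
Eif3k (chr7:28981917-28981942, - strand): ggaaggaaatCACGTGgtagacaaaa
Eif4a1 (chr11:69672597-69672622, - strand): atcgcctccgCACGTGtaaaggtgct
Eif4e, distal (chr3:138527030-138527055, + strand): cgccagcgacCACGTGatcacttttt
Eif4e, proximal (chr3:138527194-138527219, + strand): acacgtccgtCACGTGggcaggagcc
Eif4h (chr5:134639490-134639515, - strand): gccgccgcacCACGTGggccgcagag
Eif5a, first promoter (chr11:69920793-69920818, - strand): gctgcgcggcCACGTGaggtggggga
Eif5a, second promoter (chr11:69921445-69921470, - strand): ggggcggggtCACGTGtgtgcgtcat

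Eif4e was the 1 factor with 2 E-boxes in the same promoter, starting 228 and 64 bases before the start site. RefSeq lists another Eif4e promoter, before the gene's first start site, and its 250 bases hold no CACGTG. The 250 bases before the downstream start site (GRCm38.p6, chr3:138527018-138527267, + strand) are shown with both E-boxes in capitals:
Eif4e, downstream promoter: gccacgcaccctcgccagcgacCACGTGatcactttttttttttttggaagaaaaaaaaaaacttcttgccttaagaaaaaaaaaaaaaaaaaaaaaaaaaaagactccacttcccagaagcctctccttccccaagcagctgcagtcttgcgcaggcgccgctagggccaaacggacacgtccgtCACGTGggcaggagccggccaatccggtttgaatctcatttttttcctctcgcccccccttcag

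Factors with an E-box had no common direction. The 7 had a median difference of 0.03 and ran between -0.36 (Eif4h) and 0.32 (Eif1b), with 4 positive, 3 negative and 0 past the threshold (limma; Eif1b, Eif5a and Eif4h had an unadjusted p under 0.05). The 22 without an E-box in these windows had a median of 0.04 and ran between -0.17 and 0.55, and held both rises (Eif3b and Eif1ax). Over all genes tested 15.1% passed, and the counts with and without an E-box were not compared by a test. Eif4e itself differed by 0.12 ± 0.10, as given above. A match is a description of letters and shows no binding, and an effect of Myc on these genes was not tested.

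Outside the Eif1 to Eif6 set, regulators and partners of initiation were examined, and elongation and termination factors beside them. Of these, 2 genes passed in their brightest probe set. The lists below held, in order, 8, 14, 10 and 10 tested genes. Of these 12.5%, 7.14%, 0% and 0% passed, against 15.1% of all genes. Of 8 tested eIF2α kinases, phosphatase subunits and their regulators, 1 fell, 0 rose and 7 did not pass. At an unadjusted p under 0.05, limma gave 1 higher and 2 lower, while 30.5% of all genes were past it. The gene that fell was Eif2ak3, which encodes PERK, the kinase that phosphorylates eIF2α under endoplasmic reticulum stress. It gave 562, 693 and 708 in IGF-1 arrays, against 1111, 1123 and 1048 in control arrays (-0.73 ± 0.10, adjusted p = 0.0021), and its groups lay far apart. The other 2 probe sets were dimmer and gave -0.53 ± 0.16 and -0.51 ± 0.16 (adjusted p = 0.0498 and 0.059, limma). The first passed the threshold, but its mean signal was under the filter with IGF-1 (47.6) and above it in controls (75.1). That call was lost without any array except IGF-1 1 (highest adjusted p 0.16). It was also lost with no filter (0.127), and with quantile (0.0741), median (0.0713) or hybridization control scaling (0.217), each an adjusted p. With 1 added to each signal it was lost (0.0532), and with 50 kept (0.047). Array weights (0.0339), robust eBayes (0.049) and no intensity trend (0.0328) kept it, and a replicate block (0.0704) did not. Eif2ak3 passed in its brightest probe set without each array in turn (highest adjusted p 0.0126), and with scaling to hybridization controls (-0.50, adjusted p = 0.0156). Eif2ak2, the kinase PKR, and the phosphatase subunit Ppp1r15a differed by 0.27 ± 0.18 and 0.17 ± 0.11 (adjusted p = 0.36 and 0.32). Eif2ak4, the amino acid sensor GCN2, lay under the filter, with 8.53, 19.6 and 5.17 in IGF-1 arrays and 31.7, 10.3 and 19.8 in control arrays.

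Of 14 tested regulators of eIF4F through mTORC1 and MNK kinases, 1 rose, 0 fell and 13 did not pass in their brightest probe set (1 higher and 2 lower at an unadjusted p under 0.05, limma). Over the 22 tested probe sets of this list, 2 rose and 1 fell, while 15.1% of all probe sets passed. Sesn2, a leucine sensor that restrains mTORC1, had 288, 230 and 259 in IGF-1 arrays and 196, 201 and 196 in control arrays (0.36 ± 0.11, adjusted p = 0.048). Leaving out any 1 of the 6 arrays ended this call (adjusted p 0.0508 to 0.133). Mtor differed by -0.36 ± 0.15 (adjusted p = 0.13) in its brightest probe set and by 0.24 in the other. Mknk2 encodes MNK2, a kinase that phosphorylates eIF4E, and its dimmer probe set rose, with 149, 131 and 146 in IGF-1 arrays against 89.3, 80.3 and 80.7 in control arrays (0.67 ± 0.12, adjusted p = 0.0052). Its brightest probe set differed by -0.17 ± 0.10 (adjusted p = 0.3). The dimmest of 3 probe sets of Deptor, an inhibitor of mTOR, fell, with 34.9, 25.5 and 32.6 in IGF-1 arrays against 94.6, 92.3 and 55.05 in control arrays (-1.02 ± 0.20, adjusted p = 0.0085). The other 2 differed by -0.17 and -0.59 (adjusted p = 0.65 and 0.097). The calls of these probe sets of Mknk2 and Deptor held without each array in turn and with hybridization controls. The Deptor probe set had a mean signal of 55.8, just above the filter, and its IGF-1 arrays all lay under the filter. Its call held with no filter (adjusted p = 0.0408, limma), but the size of the fall was uncertain. With 1 or 50 added to each signal before log2, the difference was -1.32 or -0.68. Pdcd4, an inhibitor of eIF4A, and Ddit4, an inhibitor of mTORC1, differed by -0.09 ± 0.10 and 0.11 ± 0.17 (adjusted p = 0.58 and 0.7). Of 10 tested poly(A)-binding proteins and other partners, 0 passed in their brightest probe set (0 higher and 2 lower at an unadjusted p under 0.05, limma). A dimmer probe set of Ddx3x, an RNA helicase, fell, with 295, 314 and 313 in IGF-1 arrays against 458, 425 and 434 in control arrays (-0.49 ± 0.09, adjusted p = 0.0068). The call held without each array in turn but not with hybridization controls (-0.26, adjusted p = 0.235). The other 2 probe sets of Ddx3x differed by -0.07 and -0.13. Of 10 tested elongation and termination factors 0 passed, also at an unadjusted p under 0.05 (limma), with Eef2, the translocation factor, at 0.13 ± 0.09 (adjusted p = 0.41). The 6 eEF1 and eEF2 genes tested lay between 0.01 (Eef1a1) and 0.13 (Eef1d). Eef2k, the kinase that inhibits eEF2, lay under the filter at 39.7, 42.8 and 50.01 in IGF-1 arrays and 44.8, 39.1 and 33.4 in control arrays.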

How the data were processed

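The authors deposited 1 linear signal intensity per probe set and array, for which the submitters' processing notes name GCOS and MAS5. The sources used here give no version and no scaling target. Equal trimmed means show that the arrays had been scaled to each other. Scaling of this kind takes total RNA output as equal between groups. RNA was primed from the poly(A) tail, per the labels' protocols. Gapdh had 3′ to 5′ signal ratios of 0.748 to 0.843, and actin of 1.163 to 1.311. Precision is limited by having 3 arrays a group.

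Before testing, 15.57 (the 25th percentile over all values) was added to each signal and log2 taken. Probe sets with a mean signal above the median of 53.61 entered the test (11313 of 22690, without 64 control probe sets), with no further normalization. IGF-1 was compared with control by limma 3.58.1 in R 4.3.3 (lmFit, eBayes with intensity trend, two-sided, Benjamini-Hochberg), which was also tested on simulated data. Names came from the platform annotation, and 38 of 38 member identifiers matched RefSeq (GRCm38.p6). Probe sets with several symbols were assigned to no gene, and genes with no listed probe set were not analysed here. Per-array values are given for factors past the threshold, for the highest and lowest of each role group, and for factors fixed by name. Others were added for their other probe sets, near threshold or below the filter. Members, lists and tests were chosen with earlier results of these data known. The labels and the file name no batch. Alternatives covered pseudocount, filter, scaling, the spread model, array weights, a replicate block, the choice of probe set and leaving out each array. Promoters were searched in Python 3.11.15 with pandas 2.3.3.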

Additional observations from a re-analysis of the deposited data

How the results depend on the processing

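With 3 arrays a group, both factor calls sit near the threshold. Over all probe sets, 772 rose and 937 fell; the counts were 448 and 498 without a filter and 2023 and 287 with scaling to hybridization controls. With 1 array left out, 406 to 659 rose and 491 to 792 fell. Of the factors, 2 rose and 0 fell. The count that rose was 0 without a filter and 0 without the intensity trend (limma), 4 with the 70th percentile filter, 5 with the mean of a gene's probe sets, 7 with hybridization controls, and 0 to 2 with 1 array left out. The count that fell was 1 with quantile normalization (Eif4h) and 1 with the mean of probe sets (Eif1a). Without a filter the adjusted p was 0.0745 for Eif1ax and 0.115 for Eif3b, and without the trend 0.0518 and 0.0623. With hybridization controls the role medians were 0.314 (eIF2), 0.298 (eIF2B), 0.167 (eIF3), 0.221 (eIF4) and 0.371 (4E-BP), each carrying the shift of all probe sets, 0.207. The eIF2 median was -0.0287 without a filter, where Eif2s3y enters. Differences that turned sign had not passed the test. With hybridization controls 13 factors turned positive: Eif2s3x (0.207), Eif2b2 (0.217), Eif2d (0.0852), Eif3a (0.16), Eif3e (0.093), Eif3f (0.167), Eif3h (0.126), Eif3l (0.071), Eif3m (0.0708), Eif4a1 (0.161), Eif4a2 (0.162), Eif4g3 (0.128) and Eif5 (0.0702). With quantile normalization Eif3i (-0.00859) and Eif3k (-0.0123) turned negative. With the mean of probe sets, among the factors given per array, those that turned were Eif2s3x (0.0382), Eif2b2 (0.0516) and Eif2d (0.0129), and with median scaling Eif2s3x (0.016) and Eif2b2 (0.0255). Eif2s3x was also 0.0145 without cross-hybridizing probe sets. With 1 array left out, Eif2s3x ran between -0.114 and 0.048 (positive without IGF-1 replicate 2) and Eif4enif1 between -0.0108 (without control replicate 3) and 0.0733. The cause of these changes was not tested. Same-numbered arrays of the groups had correlations of 0.12, -0.0334 and 0.127 between their deviations. Arrays of different number had -0.149 to 0.029. So few pairs cannot decide whether same-numbered arrays belong together. With the replicate number as a block, 754 probe sets rose and 978 fell, and 2 factors rose (adjusted p = 0.0411 for Eif1ax and 0.0237 for Eif3b).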
